A study of Mus musculus with 12 samples.

Results

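The change in 5-methylcytosine (5mC) from proliferative progenitors (PP) to differentiative progenitors (DP) was read at 55085 5mC peaks, all the rows of the 5mC table, out of 102563 peaks of 5mC and 5hmC in the series. Both cell types came from the cortex of mouse embryos at E14.5 that were heterozygous for the Btg2 RFP and Tubb3 GFP reporters, so that every group carried both alleles. PP were the sorted cells lacking both reporters (Btg2-/Tubb3-), DP expressed the Btg2 reporter alone (Btg2+/Tubb3-), and neurons expressed the Tubb3 reporter. The gate of PP is defined by absence and thus takes any reporter-negative cell of the dissociated cortex. Of the 12 samples of the series, 4 belong to this comparison, an immunoprecipitated and an input sample for each cell type, and their strain was not given in the sources used here. In MeDIP an antibody pulls down sheared, barcoded DNA that carries 5mC, and PP, DP, and neurons were mixed before the pull-down. The level of a peak is the authors' log2 mean normalized read level, a single value per cell type, so that the table gives neither depth nor the spread between replicates and no difference could be tested. The change is the level in DP minus that in PP, minus the median of that difference over all peaks (-0.0040), and a change of at least 1.5-fold (0.585 on the log2 scale) was called 5mC-loss or 5mC-gain by its size alone.

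Methylation of cytosine, mostly at CpG, is written by DNA methyltransferases and copied at replication, and it is removed either passively or after oxidation to 5-hydroxymethylcytosine (5hmC) by Tet enzymes. In the embryonic cortex, radial glial cells expand in the ventricular zone and give rise to intermediate progenitors, which divide to make neurons. Btg2 is an antiproliferative gene switched on in progenitors that divide to produce neurons, and Tubb3 encodes a tubulin of neurons. A lower 5mC level in a sorted population can reflect fewer modified molecules per cell or fewer cells carrying the mark, and these cannot be told apart.

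Of 55085 peaks, 2994 (5.44%, 95% exact binomial interval from 5.25 to 5.63%, covering counting error only) were 5mC-loss and 2535 (4.60%, 4.43 to 4.78%) were 5mC-gain. Losses were thus 1.18 times as many as gains. At a change of 2-fold, 529 peaks (0.960%) lost and 363 (0.659%) gained 5mC, a ratio of 1.46. In either direction 5529 peaks (10%) passed 1.5-fold and 892 (1.62%) passed 2-fold. The standard deviation of the change across peaks was 0.366, with the 1st and 99th percentiles at -0.99 and 0.91. Values are dense at the threshold, and 2495 peaks lay within 0.05 of it on either side.

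Few peaks touched a promoter, whether changed or not. Promoter windows of RefSeq (GRCm38.p6), each with 250 bases before and 50 after a gene's start, overlapped 272 peaks by at least 50 bp. Among these, 14 (5.15%) were 5mC-loss and 15 (5.51%) 5mC-gain, close to the shares of all peaks, and the median change was 0.028. The windows with a peak held a median of 9 CpG against 7 in all 32851 windows. To show the CpG content under promoter changes, the stretch of each changed peak that lies before the start is printed for promoters whose gene is also the nearest gene in the table, 5' to 3' on the gene's strand and with each CpG in capitals. Cabp1, Gpr161, Aktip, and Rab15 lost 5mC, whereas Rhoh and Tlr1 gained it.
Cabp1 (chr5:115186122-115186153, minus strand): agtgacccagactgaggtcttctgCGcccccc
Gpr161 (chr1:165302373-165302473, plus strand): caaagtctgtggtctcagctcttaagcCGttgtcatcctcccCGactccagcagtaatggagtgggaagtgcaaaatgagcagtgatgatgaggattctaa
Aktip (chr8:91135536-91135671, minus strand): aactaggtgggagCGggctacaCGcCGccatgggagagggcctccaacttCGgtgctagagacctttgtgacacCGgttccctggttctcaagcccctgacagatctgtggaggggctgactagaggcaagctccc
Rab15 (chr12:76819126-76819282, minus strand): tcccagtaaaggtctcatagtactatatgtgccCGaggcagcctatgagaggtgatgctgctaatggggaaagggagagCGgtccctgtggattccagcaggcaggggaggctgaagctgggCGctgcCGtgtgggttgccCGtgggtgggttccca
Rhoh (chr5:65863515-65863583, plus strand): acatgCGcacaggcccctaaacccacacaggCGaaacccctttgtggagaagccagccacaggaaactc
Tlr1 (chr5:64932825-64932949, minus strand): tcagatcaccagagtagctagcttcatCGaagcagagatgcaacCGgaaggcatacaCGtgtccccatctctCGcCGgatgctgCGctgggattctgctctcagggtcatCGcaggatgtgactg

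Cabp1, which encodes a neuronal calcium-binding protein, stood out among them for its expression. Its peak went from 4.16 in PP to 3.0 in DP (change -1.15), and the expression value of the whole gene was 124 in PP and 775 in DP. The printed stretch holds 1 CpG and lies before one of the gene's RefSeq starts. In the annotation of the table the same peak lies 8287 bp inside the gene from the start used there, and that of Rab15 3704 bp inside. Gpr161, an orphan receptor of the primary cilium, lost 5mC from 4.36 to 3.33 (-1.02) with 2 CpG in the stretch and expression values of 2247 and 2762. The peak of Tlr1, an innate immune receptor, rose from 3.70 to 4.85 (1.15) with 7 CpG in the printed stretch, which covers part of the peak, and the gene was hardly expressed (3.9 and 5.7). All 3 peaks had mean levels below the median of all peaks, 5.04, and the change was most widely spread at low levels. Over all peaks, 1.62% changed by at least 2-fold in either direction.

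The size of the changes depended on the level of the peak. The interquartile range of the change was 0.824 in the decile of peaks with the lowest mean level and 0.216 in the highest decile. In the lowest decile, 21.1% of peaks were 5mC-loss and 13.4% 5mC-gain, against 0.20% and 0.109% in the highest. Losses outnumbered gains in the 2 lowest deciles and in the 4 highest, and gains outnumbered losses in the deciles between. The median change was -0.10 in the lowest decile and between -0.020 and 0.013 in the others. When the median was subtracted within 50 bins of level, 4.87% of peaks lost and 5.04% gained 5mC, which turned the order of loss and gain. Over the 27543 peaks at or above the median level, 358 (1.30%) lost and 323 (1.17%) gained 5mC.

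**Figure D1:**
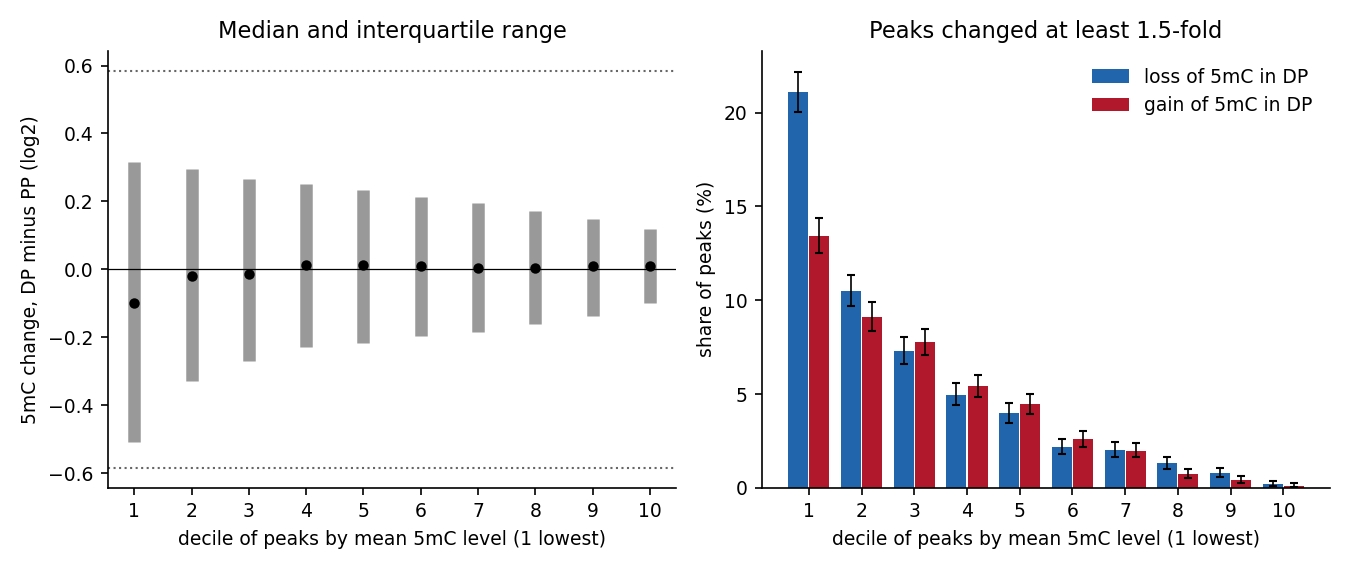
5mC change from PP to DP by decile of the mean level of the peak. Left, median (points) and interquartile range (bars) on the log2 scale, with dotted lines at 1.5-fold; right, share of peaks in percent past 1.5-fold, with exact binomial intervals that cover counting error only. The spread narrows from 0.824 to 0.216 and the called shares fall from 21.1% and 13.4% to 0.20% and 0.109%.

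Among peaks at or above the median level, the lowest change belonged to a peak 258 kb from the start of Ndufs4, a subunit of respiratory complex I, on chromosome 13 (114130282 to 114130399, mm10). Its levels in PP, DP, and neurons were 6.34, 4.89, and 3.15. A peak 32.7 kb downstream of the start of Emx1, a homeobox gene of the dorsal telencephalon, on chromosome 6 (85220056 to 85220170), went from 5.77 in PP to 4.43 in DP and 1.28 in neurons. A second peak of Emx1 at 19.7 kb, of lower level, went from 4.33 to 1.57 (-2.76), the third lowest change of all peaks. Both peaks of the gene were therefore lower in DP, and its expression value was 4886 in PP and 10161 in DP. Skor1, a corepressor gene, had a peak 45.9 kb upstream with levels of 5.93, 4.75, and 0.52 in the same order, with hardly any expression in either progenitor (4.7 and 9.2). So low a neuron level may lie near the floor of the scale. At Smad3, a mediator of TGF-beta signalling, a peak 30.5 kb upstream fell from 5.77 to 4.46 and was at 4.97 in neurons. Of the 12 lowest such peaks, 1 per gene, 8 were lower in neurons than in DP. This order was also common at peaks with neither change, at 70.3% to 75.8% depending on the expression change of the nearest gene. The nearest gene was more highly expressed in DP than in PP at 10 of the 12. This counts any difference, such as 1231 and 1235 at Rint1. No share over all peaks is set beside it, and nothing is read from it.

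The 12 highest changes at that level ranged from 0.96 to 2.11, with medians of 4.73, 5.87, and 5.30 along PP, DP, and neurons. All 12 were lower in neurons than in DP. The selection fixes the order of PP and DP, and nothing is read from where neurons lie relative to them. The highest belonged to Olfm4, which encodes a secreted glycoprotein, at 60.8 kb from its start on chromosome 14 (80060990 to 80061147), with 4.27, 6.37, and 5.15. Kcnf1, a potassium channel subunit, followed with a peak at 79.4 kb that went from 4.60 to 6.02. Both SET and MYND domain genes Smyd2 and Smyd3 were among the 12, with changes of 1.05 and 0.98 inside the genes. The nearest gene was higher in DP at 6 of the 12, again counting any difference and with no share over all peaks beside it.

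Position relative to the nearest gene made little difference. Inside genes, 5.46% of 22151 peaks were 5mC-loss and 4.43% 5mC-gain, upstream 5.39% and 4.72% of 21761, and downstream 5.50% and 4.77% of 10842. The 1649 peaks within 1 kb of a transcription start site (TSS) had a median change of -0.011 and shares of 4.79% and 3.46%, and the 6060 peaks over 100 kb away had a median of 0.007 and shares of 5.63% and 4.92%. The median distance to the TSS was 21.5 kb for loss, 22.0 kb for gain, and 20.2 kb for the other peaks. Widths did not separate them either, with medians of 143, 147, and 144 bp. On the autosomes the median change ranged from -0.017 to 0.014, the share of loss from 4.7% to 6.55% and that of gain from 3.87% to 5.38%, and losses outnumbered gains on 16 of 19. The lowest changes within 1 kb of a TSS at or above the median level, from -0.93 to -0.60, included Grifin, a lens galectin-like gene, where a peak 572 bp inside the gene went from 5.51 to 4.78. None of these 6 genes was more highly expressed in DP, a count with no share over all peaks beside it. The 6 highest, from 0.59 to 0.73, included Snx12, a sorting nexin of endosomes, and Rasef, a Rab-type GTPase.

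The changes of neighbouring peaks were nearly uncorrelated. Spearman's rho between the changes of adjacent peaks was 0.014 over 1662 pairs up to 0.5 kb apart, 0.026 over 5964 pairs from 0.5 to 2 kb, and 0.004, 0.018, and -0.010 over the greater distances up to 200 kb. The peaks of a pair share the libraries and the local base composition. After a loss peak, the next peak within 0.5 kb was lower in DP in 46 of 95 cases (48.4%), and after a gain peak the next was higher in 37 of 71 (52.1%). Between 0.5 and 2 kb the corresponding shares were 55.2% of 319 and 50.2% of 219.

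The share of 5mC-loss was highest near genes that rose in expression. Expression values of the nearest gene come from an earlier RNA-seq of the same cell types, and a gene was counted as risen or fallen at a change of 0.5 on the log2 scale after adding 10. Near the 1782 genes that rose, 594 of 8049 peaks were 5mC-loss (7.38%, 6.82 to 7.97%) and 340 were 5mC-gain (4.22%, 3.8 to 4.69%), a ratio of 1.75. Near genes that stayed within this range (unchanged genes), 5.08% of 38218 peaks lost and 4.62% gained 5mC, and near genes that fell the shares were 5.18% and 4.87% of 8818. The median change was -0.026 near risen, 0.004 near unchanged, and 0.005 near fallen genes. Genes that rose 1.4- to 2-fold and those that rose at least 2-fold had similar shares of loss, 7.25% and 7.52%. Loss also varied with the mean expression of the nearest gene. The decile of peaks with the highest values had 6.44% loss and 4.28% gain, and the lowest decile 5.99% and 4.47%. In the other deciles the share of loss was between 4.81% and 5.57%. The rise and the level of expression were not tested apart. By side, the share of loss near risen genes was 7.47% inside, 7.41% upstream, and 6.89% downstream of the gene. With 1 peak per gene, the highest, the shares near risen genes were 3.21% loss and 1.46% gain of 1775 peaks, against 2.45% and 2.27% of 10509 near unchanged genes. No p-value is given, since peaks of a gene share its expression value and are not replicates.

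The surplus of loss near risen genes was present at high levels, where few peaks changed, but did not grow evenly with the level. In quartile 2 of the level (quartile 1 being the lowest), 118 peaks near risen genes were 5mC-loss and 107 were 5mC-gain, and in quartile 3 the counts were 61 and 27. In the quartile of peaks with the highest level, 24 of 1959 peaks near risen genes were 5mC-loss and 2 were 5mC-gain. In the same quartile the counts were 49 and 38 of 9637 near unchanged genes and 10 and 14 of 2175 near fallen genes. Within level-matched centring over 50 bins the share of loss near risen genes was 6.55%, against 4.58% near unchanged and 4.63% near fallen genes.

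**Figure D2:**
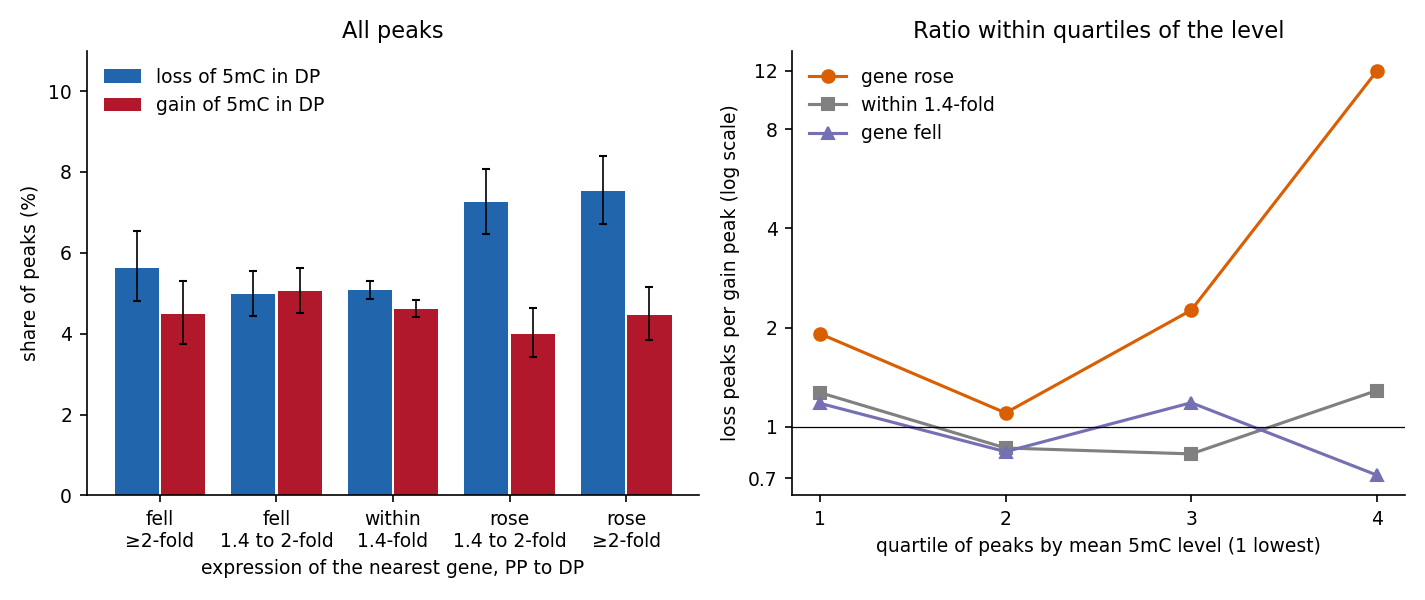
5mC changes by the expression change of the nearest gene. Left, share of peaks in percent with loss or gain of at least 1.5-fold in 5 expression classes, with exact binomial intervals (counting error only); right, number of loss peaks per gain peak, on a log axis, within quartiles of the mean 5mC level. Near genes that rose, the ratio is 1.92 in the lowest and 12 in the highest quartile, the latter from 24 and 2 peaks.

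Of the 24 high-level losses, 20 were lower in neurons than in DP and 4 were higher. Among peaks of all levels near risen genes with neither change, 75.8% were also lower in neurons than in DP. The 4 examples given here are all among the 20 and were picked out after their values were seen. Prmt8, an arginine methyltransferase of neurons, had a peak inside the gene at 6.51, 5.84, and 4.33 along PP, DP, and neurons, and its expression value was 190 in PP and 2742 in DP. Upstream of Nrn1, which encodes neuritin, a peak at 18.1 kb went from 6.58 to 5.97 and 4.55, with expression values of 428 and 5708. At Sdk2, a cell adhesion gene of the immunoglobulin superfamily, a peak inside the gene fell from 7.43 to 6.60 and 6.02. Dmrt3, a transcription factor gene of the dorsal telencephalon, had a peak 20.4 kb upstream at 6.21, 5.60, and 5.47. Both high-level gains lay far from their genes, at 44.3 kb from Bdh1, a ketone body dehydrogenase, and at 364 kb from Gm16284.

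The levels in neurons were read at the same peaks, where the calls fix the order of PP and DP. Since the calls use the DP level, they also favour neurons above DP at loss peaks and below DP at gain peaks. The shares of neurons below DP at called peaks therefore cannot show a further change after DP. At 5mC-loss peaks near risen genes the medians for PP, DP, and neurons were 4.73, 3.91, and 3.97, and 301 of 594 (50.7%) were lower in neurons than in DP. Near unchanged genes the medians were 4.76, 3.95, and 4.17, and 34.6% were lower in neurons than in DP. The corresponding share was 34.1% near fallen genes. At 5mC-gain peaks the level in neurons was below that in DP at 92.1%, 92.0%, and 90.0% of peaks near risen, unchanged, and fallen genes. Over peaks with neither change these shares were 75.8%, 71.2%, and 70.3%, also highest near risen genes. Over all peaks the median levels were 5.06, 5.05, and 4.87 along PP, DP, and neurons.

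**Figure D3:**
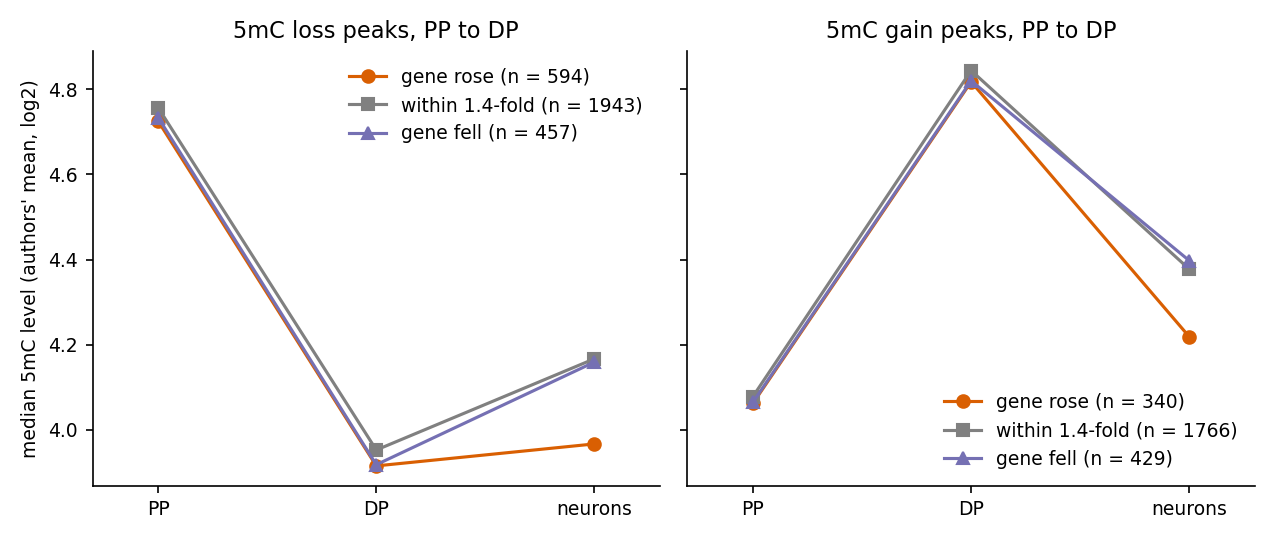
Median 5mC level (log2, authors' mean values) in PP, DP, and neurons at peaks called as loss (left) or gain (right) from PP to DP, by the expression change of the nearest gene. PP and DP values were used in the calls, which fix their order and favour neurons above DP at loss and below DP at gain peaks. At loss peaks the neuron median is 3.97 near genes that rose and 4.17 and 4.16 near the others.

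Markers of several cell types differed between the gates. In the expression values, the summed level of 14 DP marker genes was 81500 in PP and 235357 in DP, and 13 of them rose. The sum over 13 radial glia markers went from 396758 to 211010, with 12 falling, and that over 14 neuron markers from 15340 to 123273, with 12 rising. These lists thus followed the labels of the gates, and neuronal RNA was also higher in DP. Endothelial and mural markers were higher in PP, at 2306 against 872 over 10 genes of which 9 fell. The microglial sum was 449 in PP and 268 in DP over 8 genes, of which 4 fell and 0 rose. Meningeal and blood markers had values for only 2 genes (sums of 520 and 168), which went opposite ways. Col1a1 was at 463 in PP and 50.6 in DP, and Dcn at 56.9 and 117. These sums are small beside those of the progenitor markers, and their part in the 5mC changes was not tested.

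Some genes carried several losses. At least 1 loss peak was found at 2440 genes and at least 1 gain peak at 2157, and 530 genes had both. Of the 374 genes with at least 2 loss peaks, 27.5% rose in expression, and of the 92 with at least 3, 30.4% rose, against 12.4% of all genes. For gain the corresponding shares were 15.8% of 278 and 17.6% of 51. Genes with many peaks have more chances of being counted, with a median of 9 peaks for the former and 10 for the latter against 3 for all genes. Auts2, a gene of neuronal development linked to autism, had the most losses, with 6 loss and 2 gain peaks among 18 and expression values of 20725 and 33469. All 6 lay inside the gene, at 300 kb to 513 kb from its TSS, whereas both gain peaks lay upstream. The farthest loss peak was at 4.94, 3.61, and 0.11 along PP, DP, and neurons, and the next, at 498 kb, was at 4.40, 3.72, and 3.75. The same neuron value of 0.11 was found at a peak of Syt3, so it may be a floor of the scale. Pitpnb, a phosphatidylinositol transfer protein gene, had 5 loss and no gain peaks among 14, with unchanged expression (4347 and 4424). Rbfox1, a neuronal splicing regulator, had 5 loss and 2 gain peaks among 29 and expression values of 53.6 and 379. At 2 of its loss peaks, 236 and 243 kb inside the gene, neurons were at 1.2 and 1.37, and at the peaks 415 and 468 kb inside the gene at 3.78 and 3.91. The remaining loss peak, 655 kb upstream, was at 4.67, 3.57, and 4.21 along PP, DP, and neurons. Tiam2, a Rac exchange factor, had 4 loss and 2 gain peaks among 14, and its expression value was 665 in PP and 6081 in DP. All 4 of its loss peaks were lower still in neurons, at 1.65, 3.02, 1.51, and 1.82. The most gains belonged to Adra2a, an adrenergic receptor gene, with 6 gain and 2 loss peaks among 26, and its expression fell from 60.1 to 23.8. Adamts17, a secreted metalloprotease gene, gained at 4 of 13 peaks while its expression value was 57.3 in PP and 551 in DP.

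Among 3835 genes with at least 5 peaks, the lowest median change was that of Tcf20, a transcriptional coregulator, at -0.64 with 3 loss peaks of 5. Btg2 was next at -0.59 with 4 of 7, and Mtpn, which encodes myotrophin, had -0.59 with 3 of 5. The expression of Tcf20 and Mtpn changed little (1.12-fold and 0.86-fold). At the other end, Tcam1, a testis adhesion gene, had a median of 0.63 with 3 gain peaks of 6, and Polr3a, the largest subunit of RNA polymerase III, a median of 0.46 with none past the threshold.

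Btg2, whose reporter defined the gate of DP, lost 5mC around the gene. From upstream to downstream, the peak at 14.7 kb before the TSS had levels of 6.57, 5.65, and 4.48 along PP, DP, and neurons (change -0.92, chromosome 1, 134093767 to 134093930). The peak at 8.28 kb before it was at 3.89, 3.10, and 3.8, and that at 5.97 kb, the only peak that was higher in DP, at 5.46, 5.58, and 5.78. At 4.84 kb before the TSS the levels were 4.97, 4.37, and 2.96. The strongest peak, 254 bp after the TSS, was at 8.61, 8.13, and 8.22, and that at 3.32 kb inside the gene at 6.21, 5.60, and 5.18. A last peak, downstream of the gene, was at 5.63, 5.45, and 4.92. Thus 6 of 7 peaks were lower in DP, 4 of them past 1.5-fold, and in neurons 4 of the 6 were lower still. The expression value of Btg2 was 19335 in PP and 38556 in DP, a rise that the sort selects for. Tubb3, used to exclude neurons from both gates, had 5 peaks and none past the threshold. Its peak 0.883 kb upstream of the TSS was at 6.52, 6.03, and 4.36, and the other 4 changed by -0.16 to 0.28, although the expression value was 3814 in PP and 25259 in DP.

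**Figure D4:**
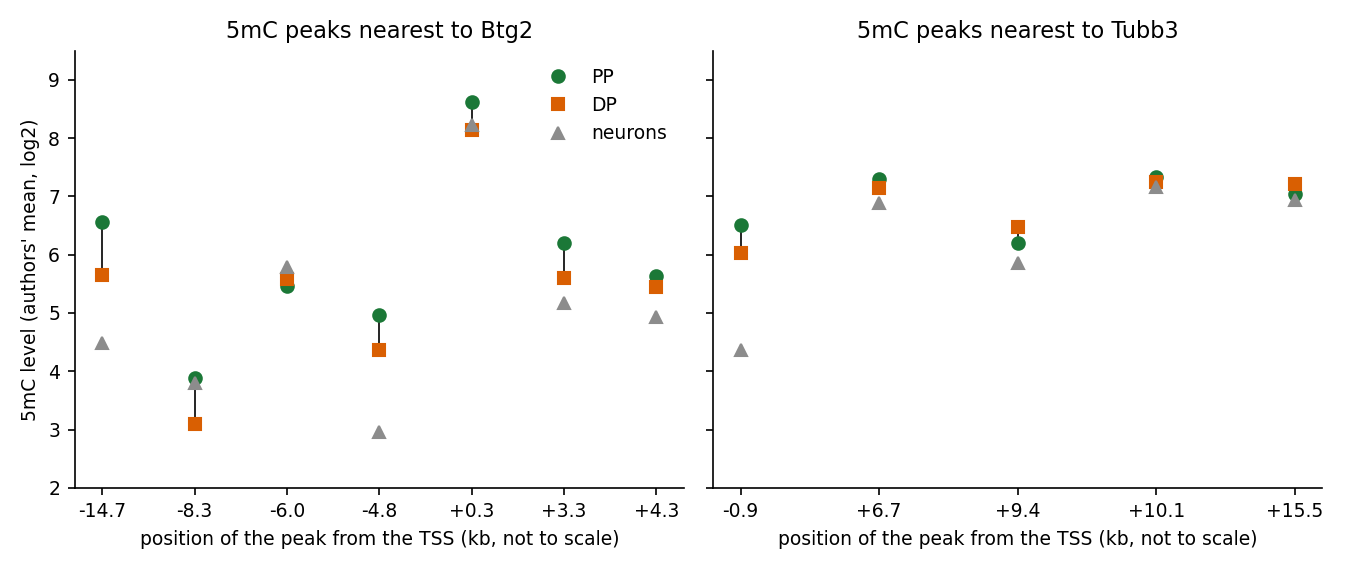
5mC level (log2, authors' mean values) of each peak nearest to Btg2 (left, 7 peaks) and Tubb3 (right, 5 peaks) in PP, DP, and neurons, ordered by distance from the TSS in kb (not to scale). Lines join PP and DP; at Btg2 the PP value is the higher at 6 of 7 peaks, and at Tubb3 at 3 of 5.

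Markers of intermediate progenitors had the lowest median of the gene lists that had at least 5 peaks. Over 53 peaks of 13 genes the median change was -0.18 (95% order-statistic interval from -0.32 to -0.090, counting error only), with 10 loss peaks (18.9%) and 2 gain peaks (3.77%), against 5.44% and 4.60% of all peaks. Btg2 accounted for 4 of the 10, and without it 6 of 46 peaks were 5mC-loss and the median was -0.17. Insm1, a zinc finger factor that drives basal progenitor formation, had 8 peaks, all upstream, of which 6 were lower in DP. Its peak at 25.2 kb went from 5.88 to 5.28 and that at 47.6 kb from 5.11 to 4.33 and 2.51 in neurons, whereas a peak at 139 kb rose from 4.40 to 5.04. At Mfng, a glycosyltransferase that modifies Notch, 1 of 4 peaks was 5mC-loss with a change of -1.11. Elavl4, an RNA-binding protein gene of neurons, Sstr2, a somatostatin receptor gene, and Mgat3, another glycosyltransferase gene, had 1 loss peak each. Dll3, a divergent Notch ligand, had a gain peak inside the gene, from 4.50 to 5.32, while its expression value was 281 in PP and 1689 in DP. The peak of Dll1, a Notch ligand, at 6.15 kb upstream was at 4.79 in PP and 4.37 in DP, below the threshold. Eomes, the T-box factor that defines these cells, had 3 peaks with changes of 0.58, 0.09, and -0.08 and none past it, although its expression value was 10188 in PP and 50497 in DP.

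Radial glia markers also had a negative median, and 12 of 13 genes fell in expression, with Prom1, a membrane protein gene, at 6128 in PP and 6013 in DP. Their 54 peaks had a median change of -0.13 with an interval from -0.24 to 0.017, and 5 (9.26%) were 5mC-loss against 1 gain (1.85%). Sox2, the stem cell factor, carried 3 of the 5 losses among 24 peaks, of which 16 were lower in DP. The peak of Pax6, a homeobox factor of radial glia, at 33.9 kb upstream went from 5.70 to 4.93 (-0.76), and the gene's expression value was 25720 in PP and 15955 in DP. The single gain belonged to Vim, an intermediate filament gene. For neuron markers the median was -0.045 over 79 peaks, with 6 losses (7.59%) and 2 gains (2.53%). Neurod2, a bHLH factor of neurons, had 1 peak, 3.65 kb upstream, at 5.91, 4.92, and 2.50 along PP, DP, and neurons, with expression values of 1455 and 14645. Inside Bcl11b, a factor of deep-layer neurons, a peak went from 5.50 to 4.82 and 3.91. Neurod6 had a loss peak and a gain peak, and Tbr1 had 2 peaks at 0.30 and 0.33, although both genes rose in expression.

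The other lists are given with their shares of loss and gain, against 5.44% and 4.60% of all peaks. Patterning homeobox factors had 13 losses (12.3%) and 4 gains (3.77%) in 106 peaks. Emx1 carried 2 of the losses, Lmx1a, a factor of the roof plate, carried 2, and 9 further genes carried 1 each. Their median change was -0.063, with an interval that included 0 (-0.11 to 0.073). The bHLH and Id factors had 8 losses and 4 gains in 65 peaks (12.3% and 6.15%) with a median of -0.011. Among them Id2, an inhibitor of bHLH factors, had 2 losses and 1 gain in 17 peaks, and its peak 248 kb upstream went from 5.92 to 5.12 and 3.06. Of the Notch pathway, 5 of 72 peaks were 5mC-loss and 2 5mC-gain (6.94% and 2.78%), including a loss 22.5 kb upstream of Hey2, a Notch target, from 5.54 to 4.76. Among 168 peaks of the Wnt pathway there were 7 losses and 6 gains (4.17% and 3.57%). Axon guidance genes had 7 losses and 12 gains in 211 peaks (3.32% and 5.69%) and a median of 0.028 with an interval from -0.046 to 0.075. Cadherins had 10 and 9 in 150 peaks (6.67% and 6.0%), with a gain 278 kb upstream of Fat3, an atypical cadherin gene, from 4.78 to 5.48. The largest change in this list was a loss (-2.29) at the only peak of Dchs1, 9660 bp from its TSS. The expression value of Dchs1 was 20332 in PP and 32354 in DP. Cell cycle and replication genes had 7 losses and 9 gains in 122 peaks (5.74% and 7.38%). Mki67, a proliferation marker, took 4 of these losses and 3 of these gains over 21 peaks.

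Voltage-gated channels had 11 losses and 8 gains in 158 peaks (6.96% and 5.06%), and 24 of 30 of these genes rose in expression. Synaptic adhesion genes had 4 and 4 in 129 (3.10% each). A peak of Ptprs, a receptor phosphatase of synapses, inside the gene went from 5.68 to 4.88, while its expression value was 56045 in PP and 99609 in DP. Imprinted genes had 3 losses and 1 gain in 87 peaks (3.45% and 1.15%), and the enzymes that write or remove cytosine methylation 1 and 2 in 47 (2.13% and 4.26%). Sox and Pou factors had 5 losses, 3 of them at Sox2, and 2 gains in 58 peaks (8.62% and 3.45%). The Nuclear factor I family had only 3 peaks, with a median of 0.29 and 1 gain. Interneuron markers had 1 loss in 11 peaks, endothelial and mural markers 4 losses and 3 gains in 63 (6.35% and 4.76%), microglial markers 1 gain in 27, and meningeal and blood markers none in 9.

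**Figure D5:**
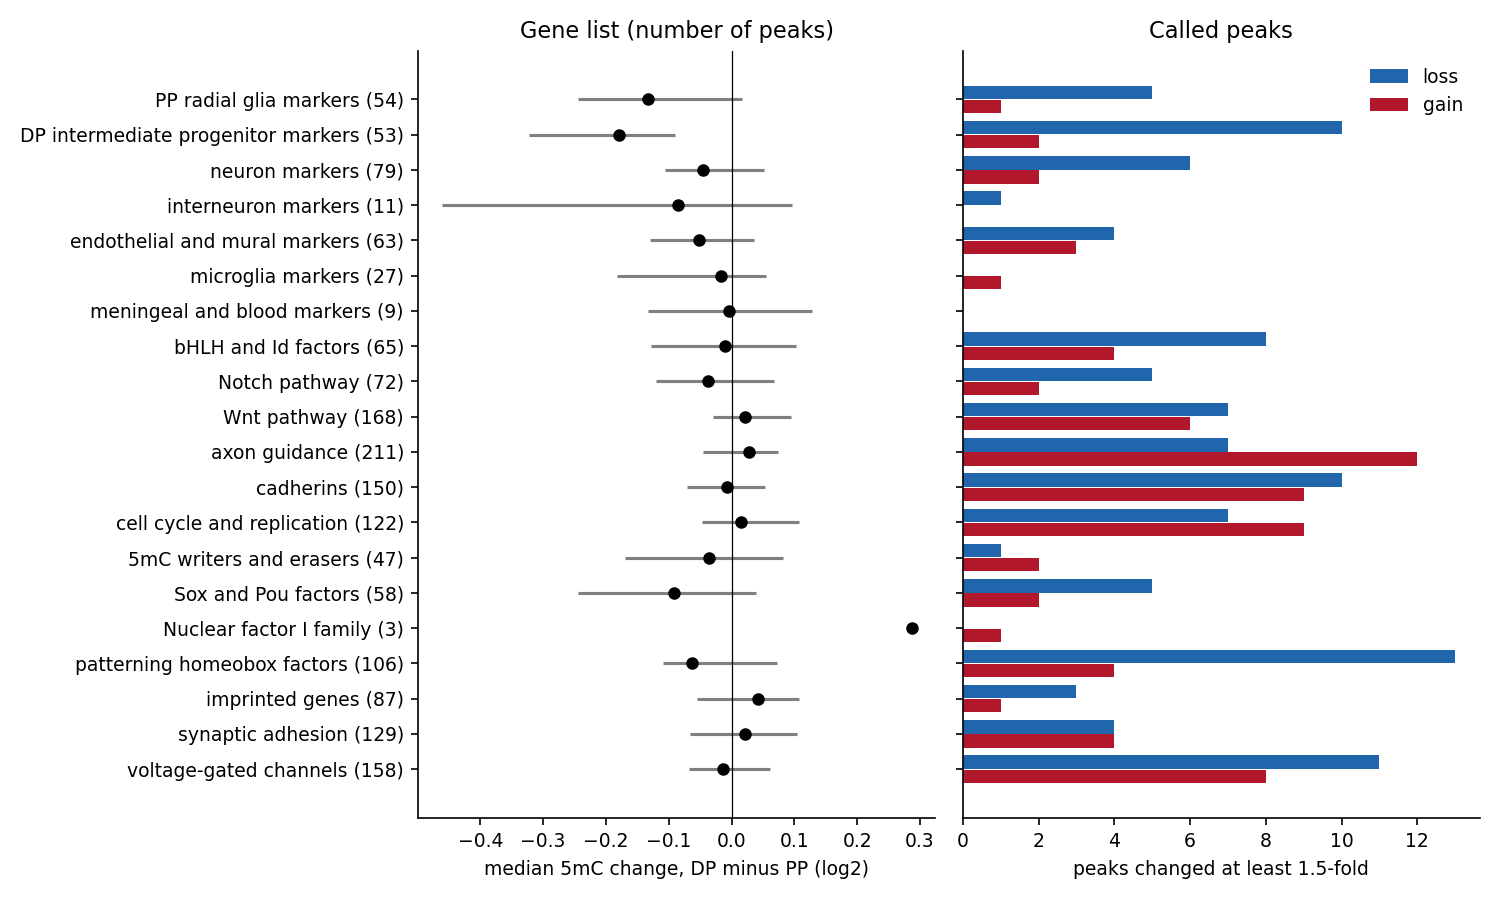
5mC change from PP to DP for 20 gene lists, with the number of peaks in parentheses. Left, median change (log2) with an order-statistic interval that covers counting error only, not drawn for the 3 peaks of the Nuclear factor I family; right, number of peaks past 1.5-fold in each direction. The DP markers have a median of -0.18 with 10 losses and 2 gains.

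Large rises of expression were also found without a called change at the nearest peaks. Among the 8 genes with the largest rise (at least 3 peaks each and a mean expression value of at least 100), 4 of 35 peaks were 5mC-loss and 2 5mC-gain. These shares are 11.4% (3.20 to 26.7%, counting error only) and 5.71%, against 5.44% and 4.60% of all peaks. The median change was -0.09. Nhlh2, a bHLH factor, rose 31.0-fold with none of 5 peaks past the threshold, and St18, a zinc finger factor of neuronal differentiation, rose 23.9-fold likewise. Chga, which encodes a protein of secretory granules, rose 18.4-fold with 1 loss among 7 peaks, from 4.52 to 3.31 at 15.2 kb from the TSS, and 5 of its 7 peaks were lower in DP. At Nrp2, a semaphorin receptor gene that rose 14.1-fold, the 2 upstream peaks lost 5mC, from 5.01 to 3.93 and from 5.14 to 4.40. The 2 peaks of Nrp2 inside the gene changed by 0.50 and 0.38. Dcx, a microtubule-associated protein of migrating neurons, rose 14.0-fold with 1 gain among 5 peaks. At the 8 genes with the largest fall, 3 of 41 peaks were 5mC-loss and 1 was 5mC-gain (7.32% and 2.44%). Car2, a carbonic anhydrase gene, fell 16.0-fold with all 4 peaks lower in DP and none past the threshold, and Aldh1l1, an astroglial folate enzyme gene, fell 7.39-fold with 1 loss among 5.

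At sites shared with 5hmC, loss of 5mC was accompanied by a higher 5hmC level in DP, relative to the median shift of all 5hmC peaks. As for 5mC, the 5hmC change is DP minus PP, minus the median of that difference over all 5hmC peaks. A 5hmC peak overlapped 17.2% of the loss peaks, 10.7% of the gain peaks, and 12% of the others. The 516 pairs at loss peaks had a median 5hmC change of 0.37 (0.29 to 0.48, counting error only), and 72.1% were above 0. For gain peaks the median was 0.041 over 270 pairs, and for the other peaks 0.11 over 5941 pairs. On this centred scale, the 5hmC level rose by at least 1.5-fold at 41.7%, 15.6%, and 19.9% of these pairs, respectively. At loss peaks near risen genes the median was 0.44 over 140 pairs, against 0.33 over 376 pairs near the other genes.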

How the data were processed

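MeDIP libraries of PP, DP, and neurons were compared from the deposited 5mC table, and hMeDIP from the 5hmC table. According to the methods and the submitters' processing notes, reads were mapped by the authors to mm10 (BWA 0.7.8-r455), peaks came from SICER 1.1 and were kept when present in all replicates and outside repeats, and levels were normalized in DiffBind (TMM). The deposited level columns hold the authors' log2 mean over the biological replicates of each cell type, without replicate values or counts. The expression score of the nearest gene was deposited by the authors with an unnamed scale and stems from a previous RNA-seq, and the distance between peak and TSS (also entered as a score, in bp) is part of their annotation. The deposited fold changes, p-values and adjusted p-values of the authors' own comparisons were not used.

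No row was filtered and no count-based test could be run, so the differential tests of the study were replaced by descriptions. Calls were by size, at 1.5-fold. Repeated rows (8) were kept. Medians have binomial order-statistic intervals and shares exact (Clopper-Pearson) 95% intervals, which cover counting error only and treat peaks as independent. Expression changes were log2 of DP over PP after adding 10, which understates changes of low genes, and a symbol with several expression values (67) kept the value of each row.

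Groups, peaks and gene lists were chosen with earlier results of these data known. Named genes were those with the lowest and highest changes at or above the median level (over all peaks, within 1 kb of a TSS and per list), the lowest and highest medians among genes with at least 5 peaks, the largest expression changes, and the reporters, with chromosome 18 passed over. Genes named for their numbers of loss or gain peaks, further members of the lists, the promoters with sequence and the high-level losses near risen genes were chosen after their values were seen. Promoter sequences were from RefSeq, and sequence content of other peaks was not analysed here. Calculations used python 3.11.15, pandas 2.3.3, numpy 2.4.6, scipy 1.17.1 and matplotlib 3.10.9, and the steps were tested on simulated data.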

Additional observations from a re-analysis of the deposited data

How the results depend on the processing

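No paired analysis was possible because the tables hold a single mean value per cell type, and for the same reason no replicate could be left out. In total, 336 alternative values of 97 results were computed, none turned the sign of a median whose interval excluded 0, and 180 stayed within the interval of the reported value or, for counts, within 1.5 times of it. The 2-fold threshold changes only the calls. Its alternatives for the medians by position, expression and list therefore equal the reported values by construction, and their agreement shows nothing. Of 253 values of results that are not listed here, 117 moved and 136 did not. Over all results, listed or not, 10 of 94 medians had the opposite sign, all with intervals that included 0. Subtracting no median, leaving out the X chromosome and counting repeated peaks once moved neither the counts nor the shares of all peaks beyond these limits.

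A threshold of 2-fold left 529 losses (0.960%) and 363 gains (0.659%), 0.970% and 0.364% within 1 kb of a TSS, 1.48% and 0.658% near risen genes, and 3 losses and 0 gains for DP markers. It moved the share of same-direction neighbours at 0.5 to 2 kb after a loss to 64.8%, and the median 5hmC change to 0.56 at loss and -0.087 at gain peaks. Peaks at or above the median level gave 358 losses (1.30%) and 323 gains (1.17%), 0.921% in each direction within 1 kb of a TSS, and 3 losses and 0 gains for DP markers. Near risen genes they gave 2.18% and 0.745% with a median of -0.015, after a loss 47.4% and after a gain 42.9% neighbours of the same direction, and a 5hmC median of 0.53 at loss peaks, the last chosen after seeing the data. With 1 peak per gene there were 364 losses (2.53%) and 316 gains (2.20%), and near risen genes 3.21% and 1.46% with a median of -0.013. Centring within 50 bins of level gave 4.87% losses and 5.04% gains, and 6.55% losses near risen genes, the latter chosen after seeing the data. A mean expression value of at least 100 moved the median near risen genes to -0.035. Leaving out Btg2, also chosen after seeing the data, reduced the losses of the DP markers from 10 to 6. Fewer peaks or a higher threshold explain these lower counts by construction, and for the other values the cause was not tested. The alternatives on sequence content were not run. The tables do not give the depth behind single peaks, and the width of the distribution at low levels limits what single peaks show.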
